A study of Glycine max with 9 samples.

Results

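FAB2 genes encode stearoyl-ACP desaturases, the plastid enzymes that place the double bond into stearoyl-ACP and so turn the saturated stearic acid into the monounsaturated oleic acid. In a developing soybean seed this step stands between the elongation of fatty acids and the later desaturases, FAD2 and FAD3, which make linoleic and linolenic acid from oleic acid. A seed that loses desaturase activity at this step is known to keep more stearic acid. The 3 FAB2 copies described here, FAB2A, FAB2B and FAB2C, were taken by their tracking IDs from a table of 33779 genes expressed in seeds.

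RNA was sequenced from whole seeds of 9 soybean lines at the S6 stage of mid maturation, grown under the same chamber conditions, with 1 library per line. By the labels, FAM94 (written FAM94-41 in the study) is a high stearic acid line, Jack resembles commodity oil, M23 is a mid oleic line, N0304-303-3 is low in palmitic and linolenic acid and mid oleic, and R95-1705 is a high protein line. The 4 lines R02-6268F, R05-4256, R05-591 and R08-1450 are labelled as high in oil. The lines differ throughout the genome and not at FAB2 alone, and the study describes an aspartic acid to asparagine change in the FAB2C protein of FAM94, so a transcript level is not a measure of active enzyme there. Some lines are also closer relatives than others. The study's tree of sequence differences places R05-591, R05-4256 and R95-1705 in 1 group and M23, FAM94 and N0304-303-3 in another. The table gives a mean FPKM over the 9 lines for each gene and a Z-score in each line. A Z-score is the gene's log2 FPKM in that line minus its mean over the 9 lines, divided by its standard deviation over the lines. It orders the lines for a gene, but the fold difference behind a score is not given, and scores of different genes do not compare their levels. With 9 lines no score can pass 2.67 in size, and the study used a cutoff of 2.

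The libraries held the transcripts of seed storage proteins at the top of the order. The 2S albumin gene and the glycinin genes Gy1, Gy4 and Gy2 were the genes of rank 1, 2, 3 and 4 by mean FPKM. The spread of Z-scores over all genes was widest in R08-1450, with a standard deviation of 1.29, and was 1.05 in Jack and from 0.786 to 0.959 in the other 7 lines. Among the 549 genes with a mean from 100 to 1000 FPKM, where FAB2B and FAB2C lie, the median Z-score was 1.11 in Jack, 0.32 in M23, -0.41 in R08-1450, -0.46 in FAM94 and -0.71 in R05-591. Abundant genes therefore shared part of their order of lines, and these medians are given beside the scores of the copies.

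FAB2C was the most abundant copy by the mean over the 9 lines. It lies on chromosome 14 from 34322852 to 34325575 (XLOC_038681) of the Williams 82 genome (the build that Gmax_189 annotates), a span of 2724 bp, and had a mean of 433 FPKM. FAB2B lies on chromosome 2 from 14104535 to 14108511 (XLOC_003038), a span of 3977 bp, with a mean of 175 FPKM. FAB2A lies on chromosome 7 from 37734424 to 37738530 (XLOC_018513), a span of 4107 bp, with a mean of 35.4 FPKM. None of these spans overlapped another gene of the table.

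FAB2C held 67.3% of the summed mean FPKM of the 3 copies, FAB2B 27.2% and FAB2A 5.50%. The mean of FAB2C was 2.47 times that of FAB2B and 12.2 times that of FAB2A. Among all 33779 genes, FAB2C had rank 140, FAB2B rank 311 and FAB2A rank 1828, so every copy was among the upper 5.41% of the expressed genes. FPKM is scaled to transcript length, but only uniquely placed reads were kept, which can lower the FPKM of similar copies. The shares and ratios are therefore those of uniquely placed reads. The levels are the authors' means over the lines, and no spread over lines comes with them. The shares need not hold in a single line, and in FAM94 the study gives FAB2C a lower FPKM than FAB2B.

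**Figure D1:**
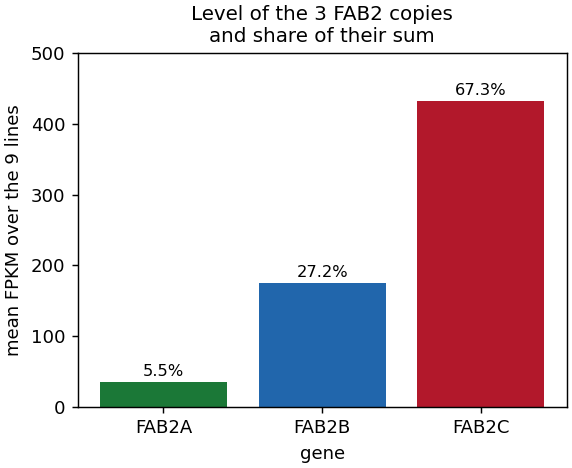
Mean FPKM over the 9 lines for FAB2A, FAB2B and FAB2C (bars, the authors' mean, with no error given), with each copy's percent of the sum of the 3 means above its bar. FAB2C, at 433 FPKM, stands above FAB2B at 175 FPKM and FAB2A at 35.4 FPKM.

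The lowest FAB2C score of all lines was that of FAM94, the line labelled as high in stearic acid. The Z-score of FAB2C was -1.37 in FAM94, -0.94 in R95-1705, -0.50 in R05-591, -0.34 in R08-1450, -0.05 in R05-4256, 0.06 in N0304-303-3, 0.09 in R02-6268F, 1.25 in M23 and 1.81 in Jack. Jack and M23 stood above the other 7 lines, which lay between -1.37 and 0.09. The score in FAM94 lay within the cutoff and was 0.44 below that of the next line on the scale of the copy's standard deviation. Of all genes, 3.32% had a score at or below -1.37 in FAM94, and 0.246% had one of -2 or below. Of the genes with a mean from 100 to 1000 FPKM, 5.10% had a score at or below -1.37 in FAM94, where their median was -0.46.

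The high end of FAB2C was shared with other abundant genes in Jack more than in M23. In Jack, 19.9% of the genes with a mean from 100 to 1000 FPKM had a score of at least 1.81, whereas in M23 only 6.56% of them had a score of at least 1.25. Of all genes, 2.05% had a score of 2 or above in Jack. When the median of these genes was subtracted in each line, FAB2C was highest in M23 with 0.92, followed by Jack with 0.71, and FAM94 was still the lowest line with -0.91, followed by R95-1705 with -0.87. The part that such a shift of abundant genes has in the score of a single copy was not tested.

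FAB2B had 1 line far below the rest. Its Z-score was -2.35 in R05-591, -0.41 in R95-1705, -0.34 in N0304-303-3, -0.07 in R05-4256, 0.45 in both Jack and M23, 0.57 in R08-1450, 0.66 in FAM94 and 1.02 in R02-6268F. The other 8 lines spanned 1.42, less than the 1.94 between R05-591 and the next line, and R05-591 held 68.8% of the sum of squares of FAB2B over the lines. FAB2B was the only copy past the cutoff. The cutoff was passed in any line by 23.8% of all genes, and a score of -2 or below in R05-591 was found for 0.764% of them.

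The low FAB2B score came in a line where abundant genes were low as a group. Of the 549 genes with a mean from 100 to 1000 FPKM, 2 including FAB2B itself had a score at or below -2.35 in R05-591. After the median of these genes was subtracted, the score in R05-591 was -1.63, still the lowest of the 9 lines for FAB2B but within the cutoff. It was -1.83 with the median of the genes of at least 10 FPKM subtracted and -2.26 with that of all genes subtracted. Over 7 lines without R08-1450 and Jack it was -1.99, but with fewer lines the largest possible score is smaller. Scores less a median were not rescaled. The cutoff of 2 is therefore not strictly comparable for these values.

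FAB2A, the least abundant copy, was low in 2 of the lines labelled as high in oil. Its Z-score was -1.78 in R05-4256 and -1.38 in R05-591. It was -0.02 in M23, 0.16 in R08-1450, 0.20 in R95-1705, 0.21 in N0304-303-3 and 0.29 in Jack. The highest scores were 1.02 in R02-6268F and 1.29 in FAM94. The lines formed a low pair, a narrow middle of 5 lines and a high pair. Of all genes, 1.14% had a score at or below -1.78 in R05-4256, although none of the FAB2A scores passed the cutoff. A score of -2 or below in R05-4256 was found for 0.406% of all genes, and without R05-591 the FAB2A score in R05-4256 was -2.14.

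**Figure D2:**
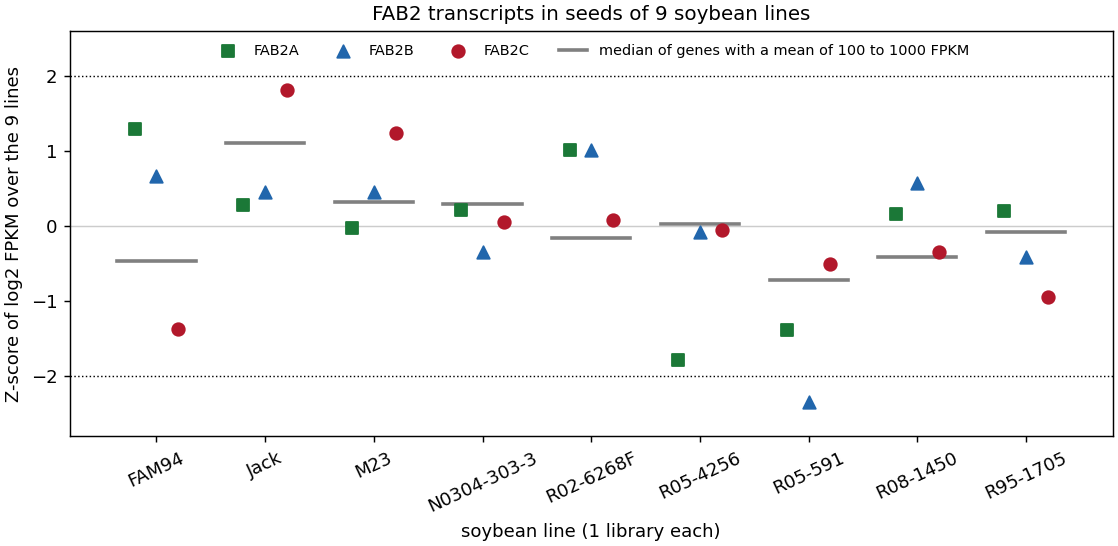
Z-scores of log2 FPKM for FAB2A (squares), FAB2B (triangles) and FAB2C (circles) in each of the 9 lines, 1 library per line, with the study's cutoff as dotted lines. Grey bars give the median of the 549 genes with a mean from 100 to 1000 FPKM. In FAM94 the copies spread from -1.37 for FAB2C to 1.29 for FAB2A, and FAB2B in R05-591 is the only point past the cutoff.

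By Z-score, FAM94 was the line in which the copies differed most from each other. FAB2A was at its highest score there, FAB2B at its second highest and FAB2C at its lowest. The FAB2C score minus the FAB2A score was -2.67 in FAM94, and minus the FAB2B score it was -2.04, each score in units of the gene's own standard deviation. No other line had a difference of this size between FAB2C and another copy. The next in size were 1.84 between FAB2C and FAB2B in R05-591, where FAB2C was the higher, and 1.73 between FAB2C and FAB2A in R05-4256, where FAB2C was again the higher. With 1 library of FAM94 there is no replicate error for these differences. From the same libraries the study already reports FAB2C below its average FPKM in FAM94 and the other copies above theirs. By the FPKM it gives, the change was proportionally larger for FAB2C than for FAB2A or FAB2B.

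In 4 of the 9 lines the 3 copies lay on the same side of their means. They were all above in Jack and R02-6268F and all below in R05-4256 and R05-591. In FAM94, R08-1450 and R95-1705 the score of FAB2C was below 0 while that of FAB2A was above 0. The position of the copies within the distributions of all genes is drawn for FAM94, R05-591 and Jack.

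**Figure D3:**
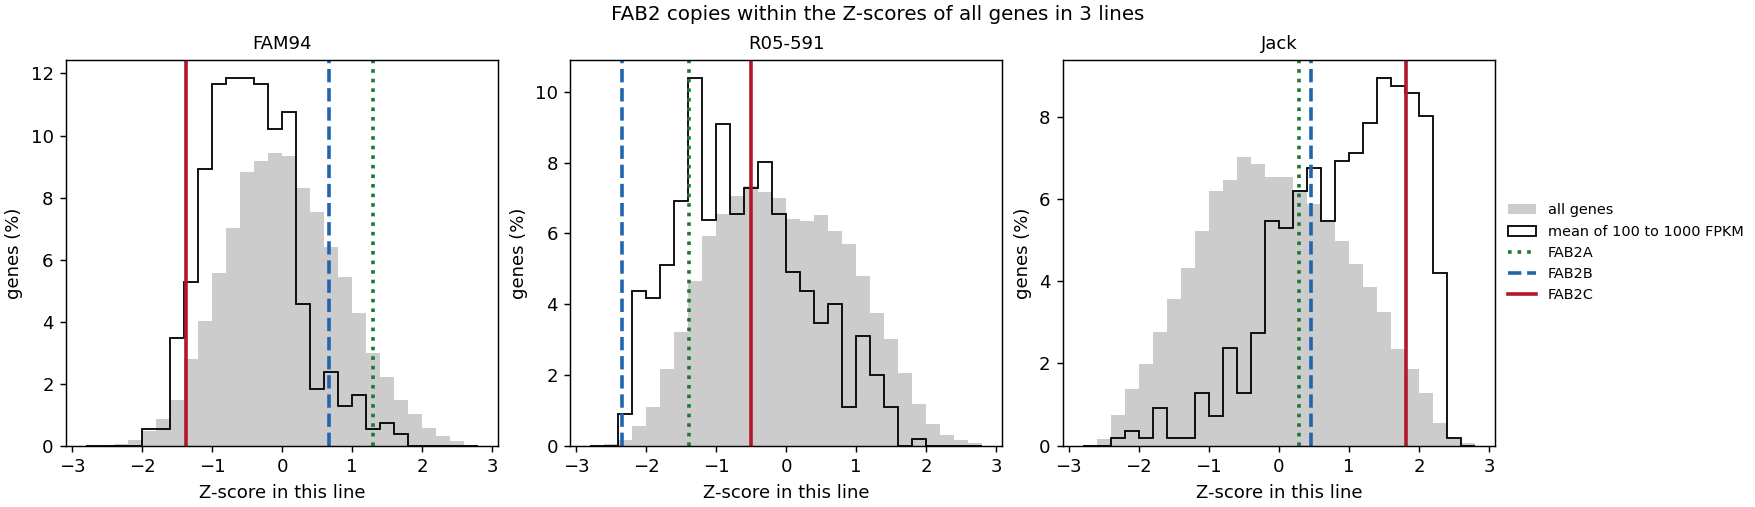
Percent of genes by Z-score in FAM94, R05-591 and Jack for all 33779 genes (grey) and for the 549 genes with a mean from 100 to 1000 FPKM (outline), with vertical lines at FAB2A (dotted), FAB2B (dashed) and FAB2C (solid). FAB2C lies in the lower tail in FAM94, with 3.32% of all genes at or below it, and FAB2B lies at the lower end in R05-591.

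FAB2A and FAB2B had the closest order of lines, but the relation did not pass the threshold of 0.05. Over the 9 lines their Pearson's r was 0.666 (exact two-sided permutation p = 0.0551, adjusted over the 3 pairs 0.165) and their Spearman's rho was 0.567 (exact permutation p = 0.121, adjusted 0.362). Without R05-4256 and R05-591, the lines farthest from the FAB2A median, r was 0.553. The relation rested on how R05-4256 and R05-591 were treated. Without R05-4256 r was 0.871 (exact permutation p = 0.0111), and without R05-591 it was 0.517 (exact permutation p = 0.200). Of all genes, 1.39% had an r with FAB2B at least as high as that of FAB2A.

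No relation of FAB2C with the other copies was detected over these 9 lines. Its r was -0.080 with FAB2A (exact permutation p = 0.849, adjusted 0.849; rho = 0, exact permutation p = 1, adjusted 1) and 0.238 with FAB2B (exact permutation p = 0.518, adjusted 0.777; rho = 0.200, exact permutation p = 0.613, adjusted 0.920). Without the lines farthest from the median of the first gene of each pair, r was -0.496 with FAB2A (R05-4256 and R05-591 left out) and -0.076 with FAB2B (R05-591 and R95-1705 left out). Of all genes, 53.7% had an r with FAB2C at least as high as FAB2A and 31.5% at least as high as FAB2B.

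The later desaturases and the thioesterase that the study names were set beside the copies. FAD2-1A and FAD2-1B turn oleic acid into linoleic acid, FAD3A, FAD3B and FAD3C turn linoleic acid into linolenic acid, and the FATB thioesterase releases mainly palmitic acid from its carrier protein. Of these 6 genes, 3 passed the cutoff, against 23.8% of all genes in any line, all with scores below 0 and none in a line where a FAB2 copy was lowest. They were FAD2-1A in M23 with -2.40, FAD3A in N0304-303-3 with -2.31 and FATB in N0304-303-3 with -2.61. The study states that the genome of M23 has a deletion that takes in FAD2-1A, and found this transcript near background there. These 3 genes are in the study's tables of variable expression, so they were not chosen apart from these data, and FAD3A was told from another gene of chromosome 14 by this low score. Nothing is read from their count.

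FAD2-1B, with a mean of 2846 FPKM the most abundant of the 6, followed the order of lines of FAB2C. Its Z-score was 1.77 in Jack, 0.78 in M23, 0.70 in R05-4256, 0.51 in R02-6268F, -0.32 in R08-1450, -0.49 in N0304-303-3, -0.77 in FAM94, -0.81 in R05-591 and -1.38 in R95-1705. Both genes were highest in Jack and M23, and FAM94, R95-1705 and R05-591 were the 3 lowest lines of both. Over the 9 lines r was 0.880 (exact permutation p = 0.000951) and rho was 0.867 (exact permutation p = 0.00451). Between the 3 copies and the 6 genes 18 relations were computed, and the values adjusted over them were 0.0171 for r and 0.0812 for rho, so the relation passed the threshold by r and not by rho. These relations were added after the table was seen.

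Without Jack and FAM94, the lines farthest from the FAB2C median, r between FAB2C and FAD2-1B was 0.796. With the line medians of the genes of 100 to 1000 FPKM subtracted from both, it was 0.734 (exact permutation p = 0.0247, unadjusted). FAD2-1B lies above this range, and taking the same medians from both genes can itself raise r. This value therefore does not show how far the relation is apart from the shift of abundant genes. An r with FAB2C of at least 0.880 was found for 0.503% of all genes. The other 17 relations had r from -0.148 to 0.591, and none of them had an unadjusted exact permutation p of 0.05 or less by r or by rho. FAB2A and FAD2-1B had an r of -0.069, and FAB2B and FAD2-1B of 0.444.

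**Figure D4:**
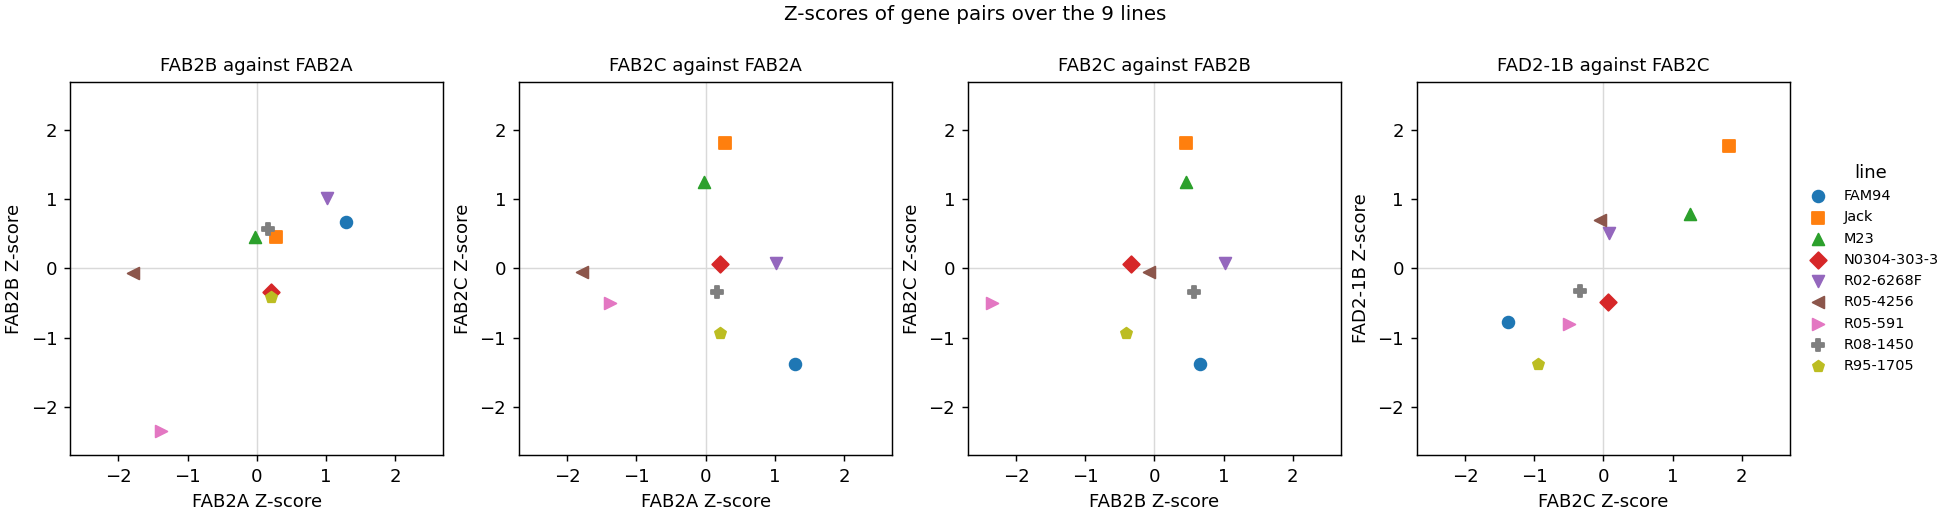
Z-scores of 4 gene pairs, 1 point per line (symbols by line, 9 lines), with FAB2B against FAB2A, FAB2C against FAB2A, FAB2C against FAB2B and FAD2-1B against FAB2C. Pearson's r was 0.666, -0.080, 0.238 and 0.880 in this order, and FAM94 is the point at the lower right in the plot of FAB2C against FAB2A.

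The order of lines of FAB2C was also more common among expressed genes than that of the other copies. Of the 7327 other genes whose mean was 10 FPKM or more, 380 (5.19%) had an r of at least 0.8 with FAB2C, 57 (0.778%) with FAB2A and 19 (0.259%) with FAB2B. These are counts over genes that share the same 9 libraries, and no test was made of the difference. The genes most like FAB2C were XLOC_007291 on chromosome 3, with an r of 0.977 and a mean of 13.0 FPKM, and XLOC_037967 on chromosome 14, with an r of 0.975 and a mean of 19.8 FPKM. Those most like FAB2A were XLOC_018749 on chromosome 7 (r = 0.945) and XLOC_037044 on chromosome 14 (r = 0.936).

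For FAB2B the highest r was 0.911, with XLOC_007262 on chromosome 3, which the study annotates as a nucleotidylyl transferase superfamily gene (Glyma03g25740), followed by XLOC_028224 on chromosome 11 with 0.904. The lowest r with FAB2B was -0.836, with XLOC_036987 on chromosome 14, and the next was -0.810, with XLOC_010322 on chromosome 4. The lowest r was -0.941 for FAB2C, with XLOC_030707 on chromosome 11, followed by -0.933 with XLOC_046114 on chromosome 17. For FAB2A it was -0.889, with XLOC_035958 on chromosome 13, followed by -0.883 with XLOC_054748 on a scaffold. Of the other genes listed for their r with a copy, XLOC_036987 was matched to Glyma14g03685, which has no description. The rest were not matched to a gene model.

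The genes beside each copy were compared with it in its lowest line. Of the 10 genes flanking FAB2A, 5 on either side, the scores in R05-4256 ranged from -1.16 to 1.52, with a median of 0.51. Around FAB2B they ranged from -1.30 to 1.69 in R05-591, with a median of 0.24. Around FAB2C they ranged from -0.96 to 2.09 in FAM94, with a median of -0.42, and 7 of the 10 were below 0. At none of the 3 loci was a flanking gene as low as the copy in the copy's lowest line, but only 1.14%, 0.0681% and 3.32% of all genes were as low as FAB2A, FAB2B and FAB2C in those lines, so that none of 10 genes is no result about the loci.

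One neighbour of FAB2C had nearly the same order of lines. XLOC_037607, on chromosome 14 from 34283533 to 34287144, is the gene before FAB2C in the table, 35707 bp away, and had a mean of 11.1 FPKM. It was matched to the study's gene model Glyma14g27940. Its Z-score was 2.10 in Jack, 0.91 in M23 and from -0.94 to 0.35 in the other 7 lines, with -0.79 in FAM94. Over the 9 lines its r with FAB2C was 0.889, and it was 0.777 without Jack and FAM94. Of all genes, 0.394% had an r at least as high with FAB2C, and the neighbour was singled out after its values were seen, so no test is given. The 20 genes flanking FAB2A and FAB2B had r with their copy from -0.747 to 0.530.

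**Figure D5:**
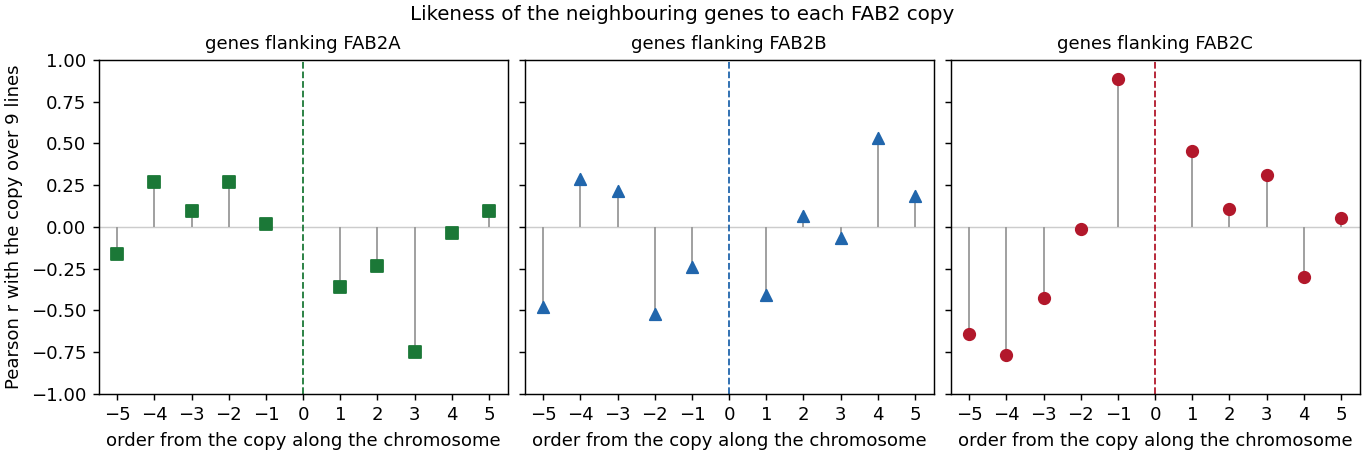
Pearson's r over the 9 lines between each FAB2 copy (dashed line at 0) and the 5 genes on either side of it, in the order of their start positions on the chromosome. The gene just before FAB2C stands at 0.889, and the genes flanking FAB2A and FAB2B lie between -0.747 and 0.530.

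High oil is the label with the most lines, 4 of the 9, and the difference by it passed the test for no copy. The mean Z-score of FAB2A was -0.49 ± 1.31 (SD, n = 4) in the high oil lines and 0.40 ± 0.52 (SD, n = 5) in the other lines, a difference of -0.89 (exact two-sided permutation p = 0.183). The high oil lines held both the lowest scores of FAB2A, in R05-4256 and R05-591, and its second highest, in R02-6268F, so the groups overlapped. Without R02-6268F the difference was -1.41 (exact permutation p = 0.0357, unadjusted). R02-6268F had the highest FAB2A score of the high oil lines, so leaving it out widens the difference. With any other single line left out, the exact permutation p was 0.161 (without R08-1450) or higher.

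For FAB2B the means were -0.21 ± 1.49 (SD, n = 4) and 0.17 ± 0.50 (SD, n = 5), a difference of -0.37 (exact permutation p = 0.730). The sign of this difference rested on R05-591, without which it was 0.67. For FAB2C the means were -0.20 ± 0.27 (SD, n = 4) and 0.16 ± 1.37 (SD, n = 5), a difference of -0.37 (exact permutation p = 0.619), and without Jack it was 0.06. The high oil lines had a narrow range of FAB2C, from -0.50 to 0.09, and the lines with other labels held both its extremes. The smallest p that 4 lines against 5 allow is 0.00794. With the p-values adjusted over all 33779 genes, that of each copy was 1, and 0 genes passed by the adjusted exact permutation p. An unadjusted p of 0.05 or less was found for 1070 genes, or 3.17%.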

How the data were processed

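Seeds of 9 lines were sequenced, 1 library per line, with TruSeq libraries and 100 bp paired-end reads. After trimming, the authors mapped reads by TopHat 1.4.0 (Bowtie 0.12.8) on Williams 82, guided by the annotation Gmax_189, and kept uniquely placed reads. Transcripts were assembled per sample by Cufflinks 2.1.1 and merged, and the authors obtained FPKM from Cuffdiff 2.1.1 (tool versions per the labels). The deposited table holds the authors' mean FPKM over the lines and, per line, a score, the authors' Z-score of log2-transformed FPKM. It holds no FPKM per line and no read counts, so the depth behind a value is unknown here and no pseudocount could be varied. Reads shared between FAB2 copies were dropped by the filter on location, which can lower the FPKM of similar copies. No column was left out (0 unused).

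The 3 copies were found by tracking ID. In RefSeq (Glycine_max_v4.0), 4 genes carry the name SACPD, on chromosomes 2, 7, 13 and 14. The gene on chromosome 13 was not matched to the table and is not analysed here. FAD2-1A, FAD2-1B, FAD3A, FAD3B, FAD3C, FATB and the storage protein genes were found by chromosome and mean FPKM or span as the study gives them, and FAD2-1A was added after the table was seen. Where 2 genes of chromosome 14 fitted FAD3A, the one below -2 in N0304-303-3 was taken. The members and lists were chosen with earlier results of these data known. Named genes were the copies, these 6 genes, and for each copy the 2 genes of highest and the 2 of lowest r among genes of at least 10 FPKM.

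Lines were compared over Z-scores. Correlations over lines used all 362880 orders of 9 lines, and the high oil label all 126 assignments, for every gene, with Benjamini-Hochberg adjustment, both two-sided. Nothing says how many plants a library holds, so p-values measure only the spread between these lines. Both permutations treat the lines as exchangeable and take no account of the groups of related lines in the study's tree. The sequencing batch is not given in the sources used here. On simulated data with 200 of 33779 genes shifted in the high oil lines, the exact test without adjustment called 193 of them. It also called 4.71% of the others. The size of the shift is not given here. The count is therefore no measure of how often differences of the size seen for the copies would be found. Alternatives were other cutoffs and filters, subtraction of line medians, ranks, and lines left out. Leaving out R08-1450 and Jack together, the medians of the genes of 100 to 1000 FPKM, and the alternatives for FAD2-1B were chosen after seeing the data. Python 3.11.15, NumPy 2.4.6, SciPy 1.17.1, pandas 2.3.3 and Matplotlib 3.10.9 were used.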

Additional observations from a re-analysis of the deposited data

Results flagged for a closer look

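The Z-score of FAB2B in R05-591, -2.35, lay far from the other 8 lines. The gap to the next line, R95-1705, was 0.577 of the whole range, above the 95% critical value of Dixon's test for 9 values. Chance alone gives such a gap in about 1 of 20 sets of values, and the 3 copies were each examined over the 9 lines and over the 4 high oil lines. R05-591 has 1 library, and the median score of abundant genes was low there as well, as given beside the result.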

How the results depend on the processing

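Of 176 alternative values over 22 results, 155 counted as unchanged, and none reversed a called value. For scores, correlations and differences, unchanged means the same direction and the same side of the threshold. The 176 also hold gene counts, ranks and adjusted p-values, which have no direction. With the medians of genes of 100 to 1000 FPKM subtracted, FAB2C in Jack (0.71) counted as unchanged. M23, at 0.92, was then its highest line. The score of FAB2B in R05-591 (-2.35) stayed past the cutoff with the line medians of all genes subtracted, at -2.26. It came within the cutoff with the medians of genes of at least 10 FPKM (-1.83) or of 100 to 1000 FPKM (-1.63) subtracted. These scores were not rescaled, so the cutoff is not strictly comparable for them. Over 7 lines without R08-1450 and Jack the score was -1.99, but with fewer lines the largest possible score is smaller. The settings of 100 to 1000 FPKM and of 7 lines were chosen after seeing the data. With the medians of the genes of 100 to 1000 FPKM subtracted, r was 0.686 between FAB2A and FAB2B (exact permutation p = 0.0406, unadjusted) and -0.190 between FAB2B and FAB2C. FAB2A lies below this range, and taking the same medians from both genes can itself raise r, so nothing is read from this p. Spearman's rho between FAB2A and FAB2C was 0, and the mean rank of FAB2B in the high oil lines minus that in the others was 0.45. The cutoff was passed by 8037 genes at 2, by 3378 at 2.2, and by 1664 of the 7328 genes of at least 10 FPKM, the last being fewer genes tested. Apart from these, the causes were not tested.

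With each line left out in turn, the score of FAB2A in R05-4256 ranged from -2.14 (without R05-591) to -1.64, and that of FAB2C in Jack from 1.67 to 2.09 (without M23). The scores of FAB2A in FAM94 (1.21 to 1.44), of FAB2B in R05-591 (-2.27 to -2.17) and R02-6268F (0.91 to 1.42), and of FAB2C in FAM94 (-1.49 to -1.28) kept their side of the cutoff. Between the copies, r ranged from 0.517 to 0.871 for FAB2A and FAB2B, from -0.212 to 0.227 (without FAM94) for FAB2A and FAB2C and from 0.155 to 0.442 for FAB2B and FAB2C, and for FAB2C and FAD2-1B from 0.780 (without Jack) to 0.917. The high oil difference ranged from -1.41 to -0.58 for FAB2A, from -0.79 to 0.67 for FAB2B and from -0.82 to 0.061 for FAB2C. Genes with an exact p of 0.05 or less by this label, 1070 with all lines, ranged from 472 (without N0304-303-3) to 1115 (without R08-1450), and were 599 without Jack, 681 without M23, 690 without R05-4256 and 671 without R95-1705.

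No paired analysis was possible because each line has 1 library and the labels give no replicate numbers. With no read counts in the table, no depth filter was applied to a copy and no counting error is given.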
